A study of Homo sapiens with 2 samples.

Results

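The 10 genes described here encode the NF-kB transcription factor subunits (NFKB1, NFKB2, REL, RELA and RELB), the classical IkB inhibitors (NFKBIA, NFKBIB and NFKBIE) and a pair of ubiquitin regulators that NF-kB itself induces (TNFAIP3 and BIRC3). They were taken by name from a table of 58233 Ensembl genes, and each of the 10 names occurred in 1 row. The table held RNA sequencing values for MDA-MB-231 cells, an established human breast cancer line, that carried a lentiviral hairpin against MPP7 (shMPP7) or a non-target control hairpin (shCon). Per the labels, both cultures were transduced at a multiplicity of infection of 10 and given fresh medium after 12 h. Both were selected with puromycin, labelled 1 mg/ml and day 7, so the virus and the drug are common to both. MPP7 encodes a MAGUK family scaffold of cell junctions, and the comparison asks which transcripts differ when it is depleted. There was 1 library per group, so no difference below has a replicate check and no p-value was computed. The labels name 1 stable line per hairpin and give no second hairpin against MPP7.

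NF-kB proteins bind DNA as dimers and are kept in the cytoplasm by IkB proteins until a receptor signal leads IkB kinases to mark the inhibitor for destruction. In the canonical route the kinase complex frees dimers that contain RELA or REL, whereas in the non-canonical route the kinase MAP3K14 drives processing of the NFKB2 precursor and release of RELB dimers. The freed factor induces its own inhibitors and several of its own subunits, which closes a feedback loop. MDA-MB-231 is known as a line with constitutively active NF-kB.

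Because several of these genes are targets of the factor they encode or restrain, their RefSeq promoters were searched for the kB motif, the letters GGG, then a purine, a pair of unspecified bases, a pair of pyrimidines, and CC, read on both strands. The window was the 250 bases before each RefSeq start (GRCh38.p14), and 8 of the 10 members had an entry. RELB and NFKBIE had none. A match occurred for 7 of these 8 genes, whereas 11.8% of 27305 genes with an entry had one, and in 8 of the 13 windows of the members, whereas 9.96% of 35116 windows had one. Overlapping matches of a palindromic stretch were counted at each start position. A match is a description of letters and was not read as a site of binding. NFKBIA, the most abundant member, is shown with its whole window, which lies outside the gene in GENCODE 29, and its 1 match in capitals begins 81 bases before the start.
NFKBIA (chr14:35404750-35404999, minus strand): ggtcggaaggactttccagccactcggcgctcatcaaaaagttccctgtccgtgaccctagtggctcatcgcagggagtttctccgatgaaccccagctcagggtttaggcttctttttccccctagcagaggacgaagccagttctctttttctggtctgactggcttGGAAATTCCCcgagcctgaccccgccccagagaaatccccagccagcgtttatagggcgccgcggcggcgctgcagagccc
For 6 other members 30 bases are shown around the match nearest to a start, again with the matched letters in capitals. They let the motif be compared between genes whose ratios are given below. The BIRC3 and NFKBIA stretches lie outside the gene in GENCODE 29, and the 5 other stretches touch a first exon or an untranslated region there.
NFKB1 (chr4:102501300-102501329, plus strand): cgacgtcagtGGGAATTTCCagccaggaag
NFKB2 (chr10:102395674-102395703, plus strand): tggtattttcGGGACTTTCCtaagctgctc
REL (chr2:60881518-60881547, plus strand): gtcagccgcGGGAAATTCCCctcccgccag
NFKBIB (chr19:38899932-38899961, plus strand): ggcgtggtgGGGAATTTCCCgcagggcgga
TNFAIP3 (chr6:137867188-137867217, plus strand): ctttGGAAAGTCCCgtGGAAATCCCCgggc
BIRC3 (chr11:102317339-102317368, plus strand): tattaccgctGGAGTTCCCCtaagtcctaa
RELA was the member with an entry and no match, in either of its windows. The letters are not in those windows, which says nothing of the factor elsewhere. The NFKB2 promoters held 5 match positions over its 3 windows, the largest number among the members.

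The shMPP7 library held 24513089 estimated counts and the shCon library 23928620. MPP7 had 21 counts in shMPP7 (95% Poisson interval 13 to 32.1), against 42 in shCon (30.3 to 56.8). Its CPM ratio was 0.488 (0.275 to 0.843), at a low level in both. In FPKM, defined below, MPP7 stood at 0.316 in shMPP7 and 0.5 in shCon, a weaker ratio of 0.632. VIM and CD44, which mark this mesenchymal line, had 102008 and 34353 counts in shMPP7, against 88934 and 33973 in shCon. CDH1, ESR1 and PGR summed to 4 counts in shMPP7 and 11 in shCon. Of the leukocyte markers, CD3E was at 0 in both libraries and PTPRC had 1 count in shMPP7 and 0 in shCon. CD14 had 176 counts in shMPP7 and 121 in shCon, and CD68 had 2968 estimated counts in shMPP7 and 2806 in shCon. The 4 fibroblast markers summed to 8 counts in shMPP7 and 1 in shCon, and the 3 endothelial markers to 78 and 74. All intervals in the text cover counting error only, since reads without molecular identifiers are not independent molecules and the spread between cultures was not measured. In a bulk library a change in the kinds of cell and a change in RNA per cell cannot be told apart.

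Per transcript length, the inhibitor NFKBIA and the subunit RELA were the most abundant members and REL the least abundant. In FPKM (fragments per kilobase of transcript scaled to library size, as deposited), NFKBIA stood at 214 in shMPP7 and 166 in shCon. RELA stood at 99.2 FPKM in shMPP7 and 75.5 in shCon. NFKBIE followed with 57.0 FPKM in shMPP7 and 44.2 in shCon.
The middle of the order was taken by subunits of both routes. NFKB2 had a level of 46.6 FPKM in shMPP7 and 43.3 in shCon, RELB 38.4 in shMPP7 and 31.2 in shCon, and NFKB1 23.3 in shMPP7 and 22.3 in shCon. NFKBIB lay between RELB and NFKB1, at 32.6 FPKM in shMPP7 and 28.5 in shCon. At the low end were BIRC3, at 10.1 FPKM in shMPP7 and 12.8 in shCon, TNFAIP3, at 3.34 in shMPP7 and 3.09 in shCon, and REL, at 2.09 in shMPP7 and 2.26 in shCon.
The order of the 10 levels was the same in both libraries. With the counting interval carried over to FPKM, all neighbours were apart in shMPP7. In shCon, NFKBIE (42.1 to 46.3 FPKM) and NFKB2 (41.6 to 45.2) overlapped, as did RELB (29.6 to 32.8) and NFKBIB (26.6 to 30.4).

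**Figure D1:**
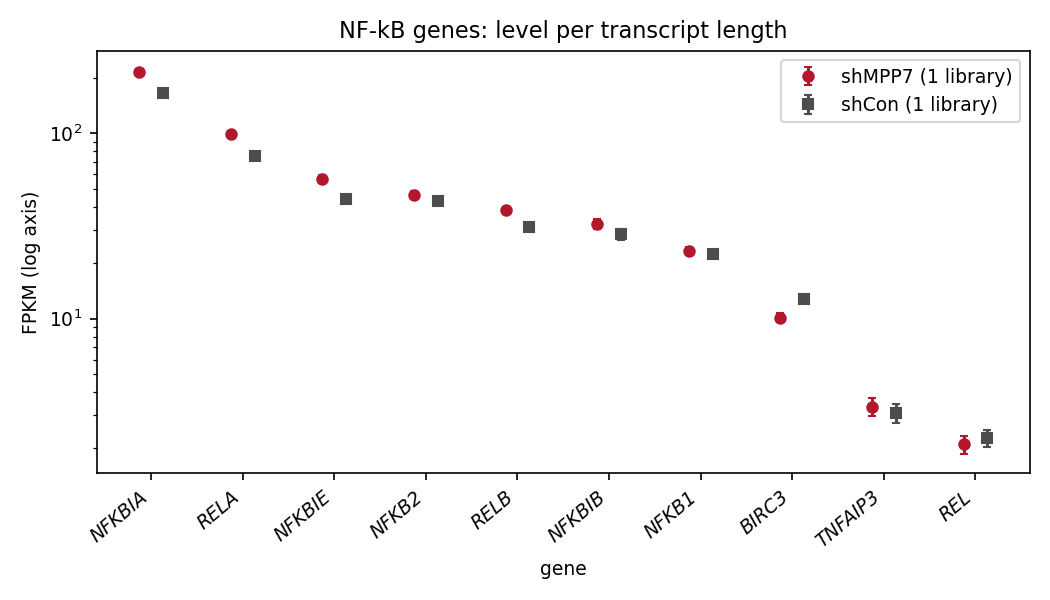
Level of each gene in FPKM on a log axis, with 1 point per library (red circles shMPP7, grey squares shCon) and bars for the 95% counting interval. NFKBIA is highest at 214 FPKM in shMPP7 and 166 in shCon, and REL lowest at 2.09 and 2.26.

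Among the subunits, RELB had the highest CPM ratio and REL the lowest, while the NFKB1 and NFKB2 precursor genes were close to equal between the libraries. RELB (ENSG00000104856, chromosome 19, 45001430 to 45038198, plus strand, GRCh38), the subunit released with processed NFKB2 in the non-canonical route, had 1785 counts in shMPP7 (1703 to 1870) and 1446 in shCon (1372 to 1523). In CPM, counts scaled to the library total, these were 72.8 in shMPP7 and 60.4 in shCon. The ratio was 1.21 (95% interval 1.12 to 1.29), the log2 ratio 0.27, and 4.35% of 12153 genes with at least 100 counts over both libraries had a ratio at least as high. RELB was thus the only member at least 1.2-fold higher, and by a narrow margin, where 4.53% of all genes were. With the trend of the ratio with length and base composition subtracted, described below, its ratio was 1.15.
RELA (ENSG00000173039, chromosome 11, 65653596 to 65663094, minus strand), the main transactivating subunit of the canonical route, had 3575 counts in shMPP7 (3459 to 3694) and 3174 in shCon (3065 to 3286). Its CPM were 145.8 in shMPP7 and 132.6 in shCon, a ratio of 1.099 (1.05 to 1.15). Of all genes, 13.6% had a CPM ratio at least as high as that of RELA.
NFKB1 (ENSG00000109320, chromosome 4, 102501329 to 102617302, plus strand), whose precursor yields the DNA-binding partner of RELA, had 1930 counts in shMPP7 and 1856 in shCon, a CPM ratio of 1.02 (0.952 to 1.08). NFKB2 (ENSG00000077150, chromosome 10, 102394110 to 102402529, plus strand), whose precursor is the partner of RELB, had 2311 counts in shMPP7 and 2274 in shCon, a CPM ratio of 0.992 (0.936 to 1.05). For both precursors the interval included 1, and it reached no further up than 1.08 and no further down than 0.936.
REL (ENSG00000162924, chromosome 2, 60881521 to 60931610, plus strand), a subunit best known from lymphocytes, had 308.2 estimated counts in shMPP7 and 351 in shCon, 12.6 CPM in shMPP7 and 14.7 in shCon. The CPM ratio was 0.857 (0.733 to 1.00), with an upper bound just above 1, and 14.7% of all genes had a ratio at least as low. Transcripts of REL are near-identical in part to 14 other genes. Among these is AC010733.2, a non-coding gene at the end of REL that shares 5702 exon bases with it on the same strand. The estimated counts of REL were fractions. AC010733.2 had 188.02 estimated counts in shMPP7 and 253.89 in shCon. With both genes summed, the estimated counts were 496.2 in shMPP7 and 604.9 in shCon, a ratio of 0.801 (0.709 to 0.903). The value of REL may depend on how reads of this stretch were divided between both genes, which was not tested.

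RELB differed from the other subunits in CPM ratio by more than counting error, before any trend was subtracted. The CPM ratio of RELB was 1.21 times that of its partner NFKB2 (1.11 to 1.33), 1.19 times that of NFKB1 (1.08 to 1.31) and 1.096 times that of RELA (1.01 to 1.19). In FPKM the order of RELB and RELA was the other way, the ratio of RELB being 0.937 times that of RELA. With the trend described below subtracted, log2 CPM ratios were 0.20 for RELB, 0.10 for RELA, 0.04 for NFKB1, 0.01 for REL and -0.06 for NFKB2. Pair intervals were not computed after subtraction. NFKB1 and NFKB2 did not differ beyond counting error, at 1.02 (0.938 to 1.12). Over the 14 pairs within a role, 8 had an interval off 1, with no adjustment for the number of pairs. Pairs of subunits and of inhibitors reuse the same genes. The share over pairs of all genes was not computed, so the 8 have no background to be read against.

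By share of subunit transcripts, RELA came first in both libraries and REL last. RELA took 47.3% of the summed FPKM of the 5 subunits in shMPP7 and 43.2% in shCon. NFKB2 took 22.3% in shMPP7 and 24.8% in shCon, and RELB 18.3% and 17.9%. NFKB1 took 11.1% in shMPP7 and 12.8% in shCon, and REL 0.997% and 1.29%. RELA had the larger share in shMPP7 and NFKB2 and NFKB1 had the larger shares in shCon. By CPM, which leaves out length, the share of RELA was 36.1% in shMPP7 and 34.9% in shCon, and that of REL 3.11% and 3.86%. NFKB1 then took 19.5% in shMPP7 and 20.4% in shCon, above RELB at 18.0% and 15.9%.

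**Figure D2:**
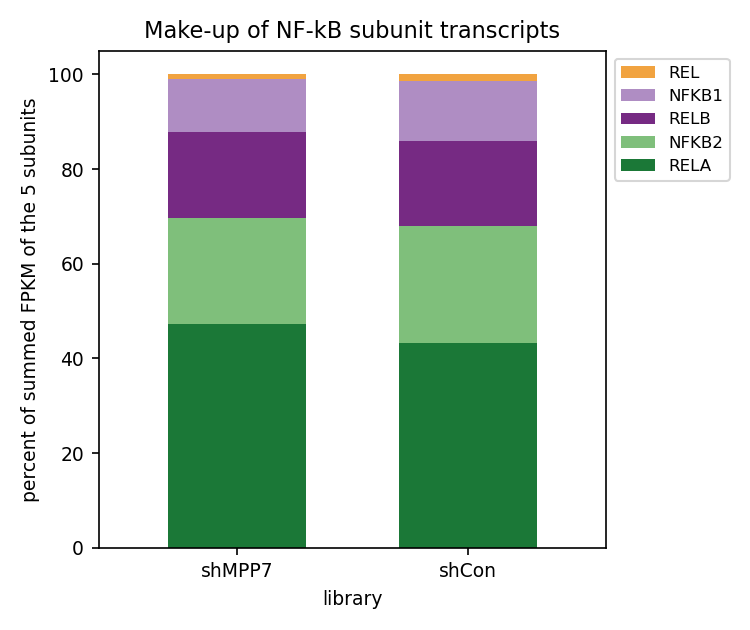
Percent of the summed FPKM of the 5 subunit genes taken by each, stacked to 100, with 1 bar per library (shMPP7 left, shCon right). RELA takes the largest share in both, 47.3% in shMPP7 and 43.2% in shCon.

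The 3 classical IkB genes were all slightly higher in shMPP7 and had nearly the same CPM ratio. NFKBIA (ENSG00000100906, chromosome 14, 35401511 to 35404749, minus strand), the inhibitor that NF-kB rapidly induces as feedback, had 5149 counts in shMPP7 (5009 to 5292) and 4480 in shCon (4350 to 4613). Its CPM were 210.1 in shMPP7 and 187.2 in shCon, a ratio of 1.12 (1.08 to 1.17).
NFKBIB (ENSG00000104825, chromosome 19, 38899700 to 38908893, plus strand), an inhibitor linked to slower and more lasting responses, had 1026 counts in shMPP7 (964.2 to 1091) and 888 in shCon (830.5 to 948.4), a CPM ratio of 1.13 (1.03 to 1.24). It shares 40 exon bases with SIRT2 on the opposite strand, which had 1314 counts in shMPP7 and 1125 in shCon, and whether strand was used in counting was not stated in the labels. NFKBIE (ENSG00000146232, chromosome 6, 44258166 to 44265788, minus strand), which also holds RELA and REL dimers in the cytoplasm, had 2019 counts in shMPP7 (1932 to 2109) and 1752 in shCon (1671 to 1836), a CPM ratio of 1.125 (1.055 to 1.2).
For each of the 3, the interval of the ratio lay above 1, where 13.8% of all genes had an interval above 1 and 21.5% one below it. Between NFKBIB and NFKBIA the ratios differed by a factor of 1.01 (0.910 to 1.11), and between NFKBIE and NFKBIA by 1.00 (0.929 to 1.08). The share of all genes with a CPM ratio at least as high was 10.5% for NFKBIA, 9.82% for NFKBIB and 10.2% for NFKBIE. Summed over the 3 inhibitors the level was 303.7 FPKM in shMPP7 and 238.7 in shCon, and summed over the 5 subunits 209.6 in shMPP7 and 174.6 in shCon. By FPKM, inhibitor transcripts stood at 1.45 times the subunit transcripts in shMPP7 and 1.37 times in shCon. By CPM, which leaves out length, they stood at 0.827 times in shMPP7 and 0.782 times in shCon, so which sum was the larger turned with the unit. These are transcript levels, and the abundance of the proteins was not measured.

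Of the ubiquitin regulators, BIRC3 was lower in shMPP7 and TNFAIP3 could not be told from equal. BIRC3 (ENSG00000023445, chromosome 11, 102317450 to 102339403, plus strand), a ubiquitin ligase of TNF receptor complexes that also restrains MAP3K14, had 1147 counts in shMPP7 (1082 to 1215) and 1369 in shCon (1297 to 1443). Its CPM were 46.8 in shMPP7 and 57.2 in shCon, a ratio of 0.818 (0.755 to 0.885) and a log2 ratio of -0.29. BIRC3 was the only member at least 1.2-fold lower, where 11.3% of all genes were, and 9.39% of all genes had a ratio at least as low. It was no longer past 1.2-fold with the trend subtracted, at a log2 ratio of -0.07. With median-of-ratios size factors it stood at -0.26, short of 1.2-fold, but these were 1.00 for both libraries and left counts unscaled for depth. With TMM-scaled library sizes it stayed past 1.2-fold, at -0.264.
TNFAIP3 (ENSG00000118503, chromosome 6, 137867188 to 137883312, plus strand), the ubiquitin-editing enzyme that shuts off TNF signalling, had 310 counts in shMPP7 (276.4 to 346.5) and 274 in shCon (242.5 to 308.4). Its CPM ratio was 1.104 (0.936 to 1.304), so a difference was not detectable at this depth. It shares 95 exon bases on the opposite strand with AL357060.1, which had 6 counts in shMPP7 and 4 in shCon. Before any trend was subtracted, the ratio of TNFAIP3 was 1.35 times that of BIRC3 (1.12 to 1.62). With the trend subtracted, the CPM ratios were closer, 1.13 for TNFAIP3 and 0.951 for BIRC3. The interval of this pair was not computed after subtraction. Both genes hold a pair of kB matches in the promoter stretches searched.

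Over the 10 members, 7 had a CPM ratio above 1, where 44% of all genes did, and the median log2 ratio was 0.14 against -0.02 over all genes. The interval lay above 1 for RELA, RELB, NFKBIA, NFKBIB and NFKBIE and below 1 for BIRC3. Together 6 of 10 members had an interval off 1, where 35.3% of all genes did. Past 1.2-fold were 2 of 10, where 15.9% of all genes were past 1.2-fold in either direction. At 1.1-fold, 5 members were higher and 2 lower, where 13.5% and 25.7% of all genes were, or 39.3% either way. No member was past 1.5-fold, where 0.601% of all genes were higher and 1.16% lower, or 1.76% either way. None was past 2-fold, where 0.148% of all genes were higher and 0.0987% lower, or 0.247% either way. RELB and BIRC3 each had over 1000 counts, and among the 7522 genes with at least 1000 counts 1.28% passed 1.2-fold upward and 5.98% downward. In the same 7522 genes the interval lay above 1 for 17.8% and below 1 for 24.7%.

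**Figure D3:**
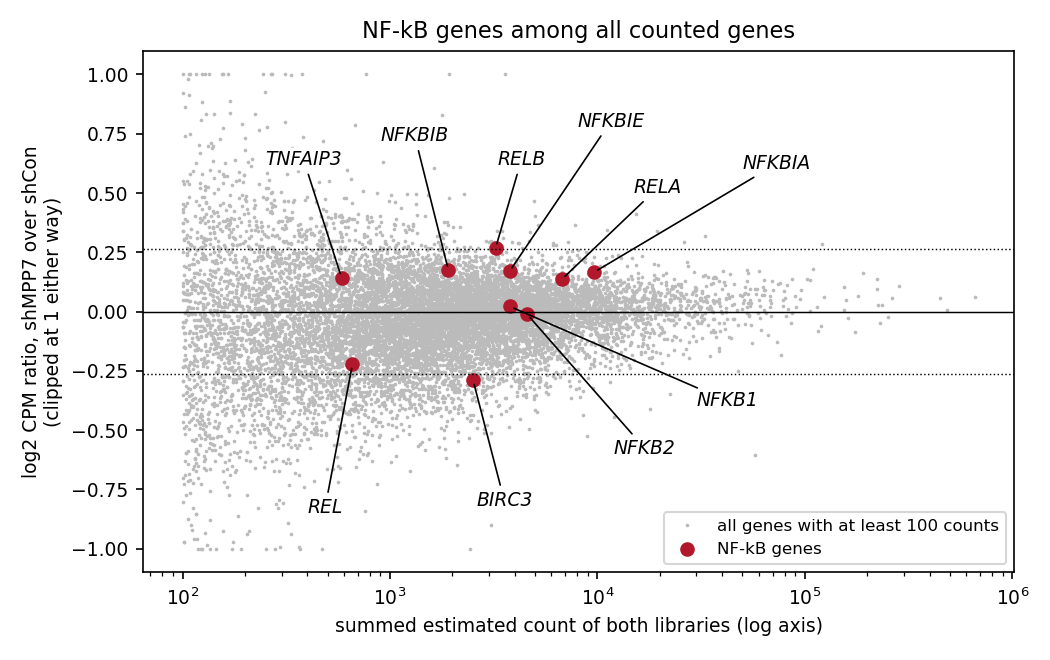
Log2 CPM ratio (shMPP7 over shCon) against the summed estimated count on a log axis, with 1 grey point per gene with at least 100 counts (values beyond 1 either way drawn at 1), the NF-kB genes in red and dotted lines at 1.2-fold. The members lie within the cloud of all genes, RELB at 0.27 and BIRC3 at -0.29 at the dotted lines.

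In FPKM the members split further, because FPKM per count changed for some of them. The FPKM ratio was 1.31 for RELA, 1.29 for NFKBIA and 1.29 for NFKBIE, beside CPM ratios of 1.099, 1.122 and 1.125. For RELB it was 1.23, for NFKBIB 1.14, for TNFAIP3 1.08, for NFKB2 1.08, for NFKB1 1.04, for REL 0.926 and for BIRC3 0.793. In FPKM, RELA, RELB, NFKBIA and NFKBIE passed 1.2-fold upward and BIRC3 downward, which makes 4 and 1 members, where 12.3% and 11.1% of all genes passed.
The length that turns CPM into FPKM was 1470 bases for RELA in shMPP7 and 1758 in shCon. For NFKBIA it was 981 bases in shMPP7 and 1128 in shCon, and for NFKBIE 1445 and 1658. For RELB it was 1898 bases in shMPP7 and 1939 in shCon. These lengths also carry any difference between the row totals used here and the library scaling behind FPKM. The shift of FPKM against CPM was 0.26 for RELA, 0.20 for NFKBIA, 0.20 for NFKBIE and 0.03 for RELB on the log2 scale. Over all genes its median was 0.06 and its quartiles 0.01 and 0.11, and 8.02% of genes had a shift as large as that of RELA. GENCODE 29 lists 27 transcripts of RELA, 10 of NFKBIA and 4 of NFKBIE, and a change in the mix of transcripts was not tested, since the table holds values per gene.

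**Figure D4:**
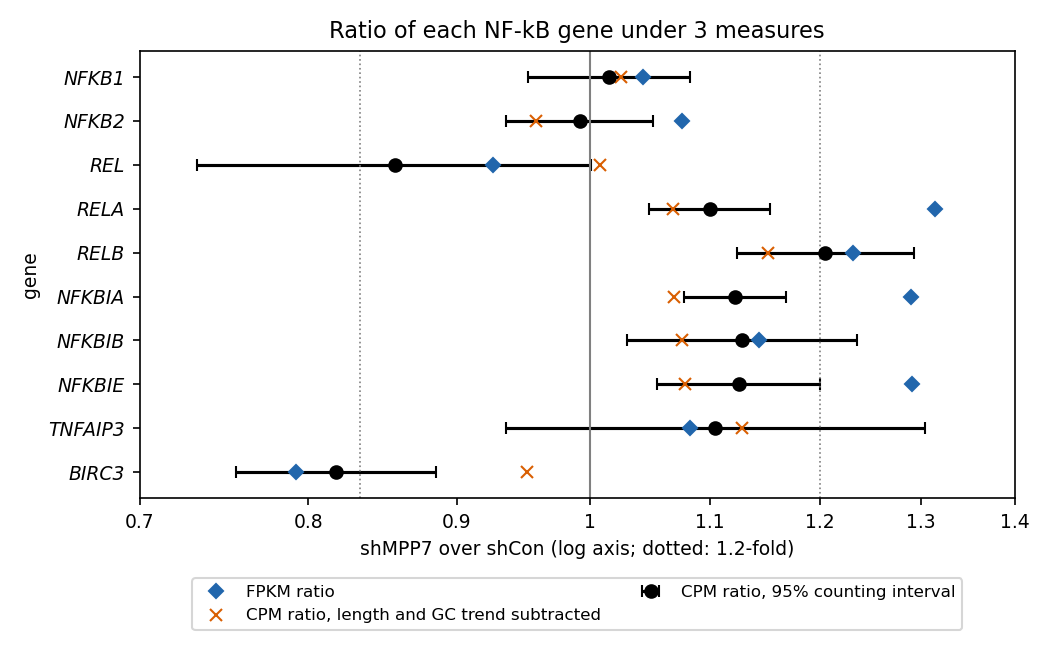
Ratio of shMPP7 over shCon on a log axis for each gene, as CPM with its 95% counting interval (black), as FPKM (blue) and as CPM less the length and GC trend (orange), with dotted lines at 1.2-fold. RELA, NFKBIA and NFKBIE stand apart between CPM and FPKM, and REL and BIRC3 stand nearer to 1 after the trend.

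The members also differ in transcript length and base composition, with which ratios moved over all genes. BIRC3 and REL have the lowest GC content of the 10 in their longest transcripts, 34.8% and 38.7%, and the longest ones, 5197 and 11255 bases. A trend over protein-coding genes gave -0.22 at the length and GC content of BIRC3 and -0.23 at those of REL. Once it was subtracted, the log2 CPM ratio was -0.07 for BIRC3 and 0.01 for REL, and 28.6% of all genes stood at least as low as BIRC3.
RELB has a GC content of 65.4%, and its log2 ratio was 0.20 once the trend value of 0.07 was subtracted. NFKBIA stood at 0.10, NFKBIB at 0.10, NFKBIE at 0.11 and RELA at 0.10 after subtraction, where 20.6% to 22.9% of all genes stood at least as high. TNFAIP3 was at 0.17 after subtraction. No member was then past 1.2-fold, where 4.93% of all genes were higher and 6.48% lower, or 11.4% either way. The median of the 10 was then 0.10, against 2.79e-05 over all genes.

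Other genes of the pathway were read from 7 lists with 83 genes, of which 79 had at least 100 counts. Of these, 3 passed 1.2-fold upward and 5 downward, where 4.53% and 11.3% of all genes did. In FPKM the balance turned, with 13 upward and 3 downward, where 12.3% and 11.1% of all genes passed. The interval lay above 1 for 19 and below 1 for 16, where it did for 13.8% and 21.5% of all genes. The median log2 CPM ratio was 0.02. Apart from TNF, the genes named below are the 3 with the largest ratio in either direction in each list, so their size is given by that choice.

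**Figure D5:**
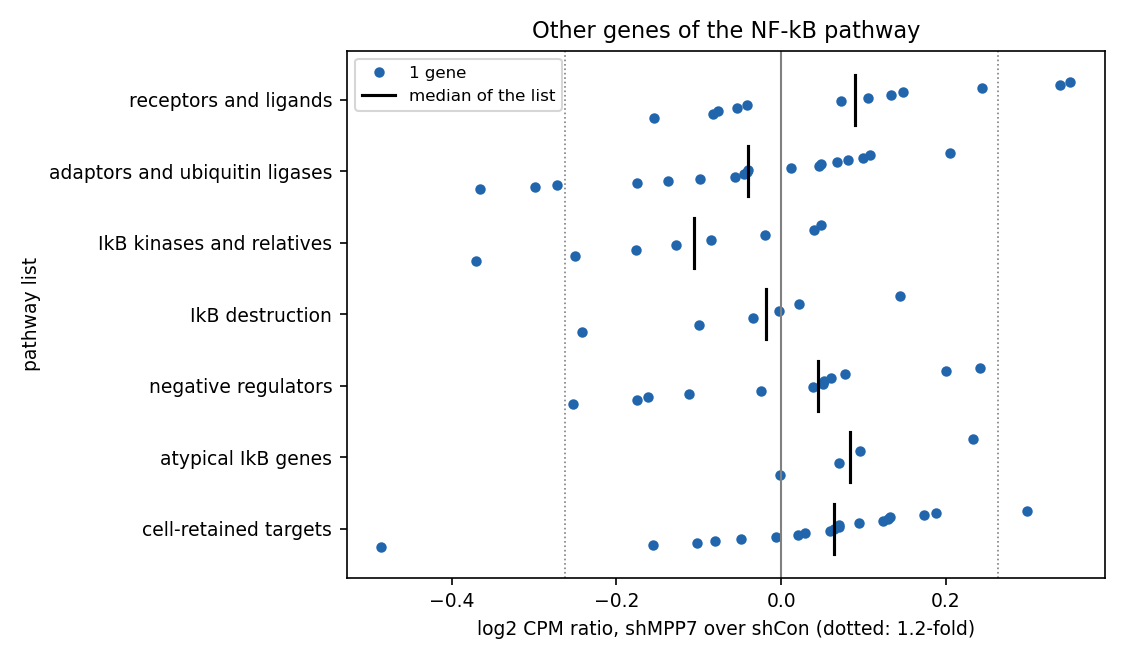
Log2 CPM ratio (shMPP7 over shCon) of the 79 other pathway genes with at least 100 counts, in 7 lists, with 1 point per gene, a black line at the median of the list and dotted lines at 1.2-fold. The medians lie between -0.11 for IkB kinases and relatives and 0.09 for receptors and ligands.

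Receptors and ligands had 5 of 12 intervals above 1 and 1 below it, where 13.8% and 21.5% of all genes had one, and a median log2 CPM ratio of 0.09. TNFRSF11A, the receptor for RANK ligand, had 179 counts in shMPP7 and 137 in shCon, a CPM ratio of 1.28 (1.02 to 1.61). LTB, the membrane part of lymphotoxin that signals to the non-canonical route, had 136 counts in shMPP7 and 105 in shCon, a ratio of 1.26 (0.973 to 1.65). TNFRSF1B, the inducible TNF receptor, had 747 counts in shMPP7 and 616 in shCon, a ratio of 1.18 (1.06 to 1.32). TNF, the ligand itself and the list's gene under 100 counts, had 5 counts in shMPP7 and 6 in shCon.

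Of 18 adaptors and ubiquitin ligases, 5 had an interval below 1 and 2 above it, near the shares over all genes of 21.5% and 13.8%. Their median log2 ratio was -0.04 in CPM, 0.02 with the trend subtracted and 0.01 in FPKM, so it took either sign. TAB3, which links ubiquitin chains to the kinase MAP3K7, had 817 counts in shMPP7 and 1028 in shCon, a CPM ratio of 0.776 (0.707 to 0.851). IRAK4, the kinase of Toll-like and IL-1 receptor complexes, stood at 0.813 (0.673 to 0.980) and XIAP, a ubiquitin ligase and caspase inhibitor, at 0.828 (0.760 to 0.903), although the FPKM ratio of XIAP was 1.11.
Of 8 IkB kinases and relatives, 4 had an interval below 1 and 0 above it, where 21.5% and 13.8% of all genes had one. Their median log2 ratio was -0.11 in CPM and -0.06 with the trend subtracted, but 0.02 in FPKM. TBK1, an IkB kinase relative of antiviral signalling, had 385 counts in shMPP7 and 486 in shCon, a CPM ratio of 0.773 (0.675 to 0.886). CHUK, a catalytic IkB kinase that acts in both routes, stood at 0.841 (0.763 to 0.926). MAP3K14, the kinase that starts the non-canonical route, had 1518 estimated counts in shMPP7 and 1674 in shCon, a ratio of 0.885 (0.825 to 0.949).
Beside these values, GC contents were 36.3% for CHUK, 39.3% for TBK1, 39.1% for TAB3 and 39.0% for XIAP. With the trend subtracted their log2 ratios were -0.06, -0.27, -0.17 and -0.07, and that of MAP3K14, with 59.0% GC, was -0.20.

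The ubiquitin ligase parts that destroy IkB had 1 interval of 6 above 1 and 1 below it, where 13.8% and 21.5% of all genes had one. Their median log2 ratio was -0.02 in CPM, but 0.10 with the trend subtracted and 0.06 in FPKM. CUL1, their scaffold, stood at a CPM ratio of 0.846 (0.801 to 0.893). RBX1, their RING subunit, stood at 1.105 (1.02 to 1.197), and BTRC, which recognises phosphorylated IkB, at 0.933 (0.854 to 1.02). Of 12 negative regulators, 2 had an interval above 1 and 3 below it, near the shares over all genes of 13.8% and 21.5%, with a median of 0.04. TNIP2, a ubiquitin-binding partner of TNFAIP3, had 1903 counts in shMPP7 and 1571 in shCon, a ratio of 1.18 (1.11 to 1.26). CYLD, a deubiquitinase of the pathway, had 910 counts in shMPP7 and 1058 in shCon, a ratio of 0.840 (0.768 to 0.918). With 39.7% GC, the log2 ratio of CYLD was -0.25 before and -0.06 after the trend was subtracted. COMMD1, which promotes the turnover of RELA, stood at 1.15 (0.978 to 1.34).

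Of the 4 atypical IkB genes, 1 had an interval above 1, where 13.8% of all genes had one, namely NFKBIL1, at a CPM ratio of 1.17 (1.06 to 1.31). NFKBIZ, a nuclear coactivator of NF-kB target genes, stood at 1.07 (0.980 to 1.17) and NFKBID at 1.05 (0.867 to 1.27). Among 19 measured target genes whose products stay in or on the cell or act at its surface, 8 had an interval above 1 and 2 below it, where 13.8% and 21.5% of all genes had one, with a median of 0.06. NUAK2, an AMPK-related kinase, had 313.8 estimated counts in shMPP7 and 249 in shCon, a ratio of 1.23 (1.04 to 1.46). CD83, a membrane protein, stood at 1.14 (1.03 to 1.26). PTGS2, the inducible cyclooxygenase, had 60 counts in shMPP7 and 82 in shCon, a ratio of 0.714 (0.503 to 1.01).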

How the data were processed

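The authors deposited 1 table with an estimated count and an FPKM value per gene for each library, per the file headers. TopHat2 2.0.9, Cuffdiff and hg19 appear, without roles, per the submitters' processing notes. No label or header names the counting tool. In the deposited counts, 73.0% of shMPP7 and 71.8% of shCon values above 0 were whole numbers. Groups came from the genotype label, with 1 library each. Positions, lengths and GC contents came from GENCODE 29 (GRCh38) through the Ensembl ID (57836 of 58233 IDs matched), so positions are not on the hg19 build.

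CPM were computed from library totals over all rows. Ratios carry Clopper-Pearson intervals conditional on the summed rounded count, single counts Poisson intervals (95%), and ratios of ratios exact conditional odds ratio intervals, with scipy 1.17.1. All genes means those with at least 100 counts over both libraries. The script was tested on simulated counts. The trend was a quadratic fit of the log2 CPM ratio on log2 length and GC content of the longest transcript. TMM factors came from edgeR 4.0.16. Near-identical transcripts (97% identity over 100 bases, blastn 2.17.0) were found for REL, with 14 other genes, and not for the 9 other members. Sequences are RefSeq's (GRCh38.p14).

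The 10 members, the lists and the 1.2-fold rule were chosen with earlier results of these data known. Named were all members, MPP7 and the 3 list genes with the largest absolute log2 CPM ratio. Alternatives changed scaling, unit, pseudocount, trend, duplicate names, fold, rounding and interval, and, chosen after seeing the data, the sum of REL and AC010733.2 and the trend and unit of the pathway lists. 1 leukocyte marker is not reported here.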

Additional observations from a re-analysis of the deposited data

How the results depend on the processing

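The median log2 CPM ratio of the members (0.14) and their 6 intervals off 1 kept their side in every setting run for them. For the intervals these settings were counts rounded down or up, a 99% interval and TMM-scaled library sizes. The intervals were not rerun with the trend subtracted, where the ratios of all 6 members stood nearer to 1. BIRC3 then stood at 0.951 and NFKBIB at 1.08, so the 6 intervals off 1 may not all hold after subtraction. The number of members past 1.2-fold (2) was 1 with median-of-ratios size factors (RELB), 5 in FPKM with 1 or 0.1 added, and 0 with the trend subtracted. It was 7 at 1.1-fold, 0 at 1.5-fold and 0 at 2-fold, and 3 with REL and AC010733.2 summed. The median-of-ratios size factors were 1.00 for both libraries, so that setting left counts unscaled for depth. RELB stood between 0.20 and 0.30 on the log2 scale over the alternatives and BIRC3 between -0.33 and -0.07, whereas NFKB2 (-0.06 to 0.11) and REL (-0.32 to 0.01) held values on both sides of 0. The share of all genes past 1.2-fold (15.9%) was 34.7% without a minimum and 7.26% with at least 1000 counts, where fewer genes of low count enter. The pathway genes past 1.2-fold (8) were 4 with the trend subtracted (TNFRSF11A and TNFAIP8 higher, TBK1 and PTGS2 lower, TNFAIP8 being named after its value was seen) and 16 in FPKM (13 higher, 3 lower). By CPM, which ignores length, RELA took 36.1% of the subunits in shMPP7 and 34.9% in shCon, NFKB1 19.5% and 20.4%, and REL 3.11% and 3.86%. NFKB2 took 23.3% by CPM in shMPP7, and RELB 15.9% in shCon. Where no construction is named, the cause was not tested. Depth limits REL and TNFAIP3 most, the members with the fewest counts. No paired analysis was possible because each group has 1 library.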
